A study of Mus musculus with 8 samples.

Results

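Bone marrow–derived mast cells (BMMCs) are grown by keeping whole bone marrow in IL-3, a cytokine that favors mast cells while most other blood lineages die out or stop dividing. Genes of those other lineages can therefore point to other cells left in the culture. Some of them, such as *Prss34*, can also be expressed by mast cells, so their level does not measure the number of such cells. The set described here consists of 38 such genes, listed by symbol. They are markers of macrophages and monocytes, neutrophils, basophils, B cells, T cells, dendritic cells and progenitors, and erythroid cells. The list was drawn up by gene identity, with earlier results of these data known. Of these 38 genes, 33 had a row among the 24059 gene symbols in the count files. The other 5, *S100a8*, *Elane*, *Ltf*, *Camp* and *Hbb-bs*, were not analysed here.

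The cells came from C57BL/6 mice aged 6 to 8 wk and were differentiated for at least 4 wk. They then received ribonucleoproteins (RNPs) of Cas9 and a guide RNA. The scrambled group (*Scrambled*, genotype label *Zc3h12a* WT, n = 4) received a guide without a target, and the *Zc3h12a* RNP group (genotype label *Zc3h12a* KO, n = 4) received guides against *Zc3h12a*, the gene of the RNA-degrading protein Regnase-1. Both groups carried Cas9 protein, were unstimulated, and were lysed after 1 wk in culture. Bone marrow of 4 mice was used and cells of each mouse received both RNPs, so samples of equal replicate number form a pair here. The RNP-treated cells were a pool and not a clone, and no sort on the edit was described for these samples. Every sample was poly(A)-selected bulk RNA, and its total count was between 19610240 and 33986762.

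The 4 guide sequences are shown because they are the only designed difference between the groups. The guides against *Zc3h12a* match the + strand of GRCm39 without a mismatch, and the gene lies on the - strand. Guide 1 lies at chr4:125014763-125014782 in the coding part of exon 4 of 6. Guide 2 lies at chr4:125020411-125020430 and guide 3 at chr4:125020811-125020830, each in the coding part of exon 2. Capitals mark the adjacent NGG motif (PAM) that Cas9 needs in the genome, which is not part of the guide.
guide 1: caccactccgtcggattcgaAGG
guide 2: ttgcttccgtcgatgaccacAGG
guide 3: ggacaggcttcgttccacaaGGG
scrambled guide: ggttcttgactaccgtaatt
Across the gene bodies of the 33 markers with a row, the closest NGG-adjacent site had 6 mismatches to guide 1 (in *Pax5* and *Flt3*), 7 to guide 2, 6 to guide 3 (in *Itgam* and *Flt3*) and 6 to the scrambled guide. In *Ighm*, the closest site had 8 to 10 mismatches over the 4 guides.

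The targeted gene was counted in every sample. *Zc3h12a* had 787, 1140, 942 and 826 counts in scrambled replicates 1 to 4, and 774, 949, 783 and 1004 in *Zc3h12a* RNP replicates 1 to 4. The groups overlapped, with a log2 fold change of -0.06 ± 0.0967 (SE, edgeR adjusted p = 0.960). Counts over a whole gene do not show small insertions or deletions, so this value does not check the labels. Values are given as raw counts, or as CPM, which are counts scaled to a common library size with edgeR's TMM factors. Where genes are ranked by abundance or given per kilobase, CPM was divided by the kilobases of the gene's canonical transcript. Other values, including sums over genes and genes set side by side in counts or CPM, are not corrected for length.

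The mast cell genes *Cpa3*, *Kit*, *Fcer1a* and *Ms4a2* were above every lineage marker in every sample. *Cpa3*, the mast cell carboxypeptidase, was at 31172 ± 3611 CPM in scrambled samples (mean ± SD, n = 4) and at 27808 ± 1791 CPM in those with the *Zc3h12a* RNP (n = 4). *Kit*, the receptor for stem cell factor, was at 3459 ± 503 and 3345 ± 641 CPM. The IgE receptor subunits *Fcer1a* and *Ms4a2* were at 2468 ± 426 and 1466 ± 222 CPM in scrambled samples. Against these, the 33 lineage markers summed to 109 ± 49.2 CPM in scrambled and 119 ± 75.2 CPM in *Zc3h12a* RNP samples. The sum of a list of 20 mast cell genes was 67552 and 60766 CPM, so the markers came to 0.161% and 0.196% of it. Not all 20 were high. *Mcpt2* and *Mcpt4* averaged 7.48 and 4.78 CPM. Another 2 had fewer than 10 counts per sample on average, *Tpsab1* (0 to 3 counts) and *Mcpt1* (2 to 11). A marker gene in bulk RNA may come from a few cells with much of it or from many with little, and fewer cells of a type and less RNA per cell cannot be told apart.

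*Ctsg*, listed here as a neutrophil marker, held most of that sum. Without it, the other 32 markers summed to 39.8 ± 10.1 CPM in scrambled and 39.0 ± 4.78 CPM in *Zc3h12a* RNP samples, or 0.0589% and 0.0643% of the mast cell sum. Ordered by level per kilobase, *Ctsg* was followed by *Cd68*, *Ighm*, *Cd3e*, *Lyz2*, *Epor*, *Prss34*, *Adgre1* and *Flt3*, the mean of *Cd68* being 5.72 CPM per kilobase and that of *Flt3* 0.889. *Kit* was at 646 CPM per kilobase, 8.71 times *Ctsg*, 113 times *Cd68* and 260 times *Ighm*. From *Cd68* to *Flt3*, the ranges over samples of neighbors in this order overlapped. At the other end, 17 of the 33 markers had fewer than 10 counts per sample on average, and none was at 0 in all 8 samples.

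**Figure D1:**
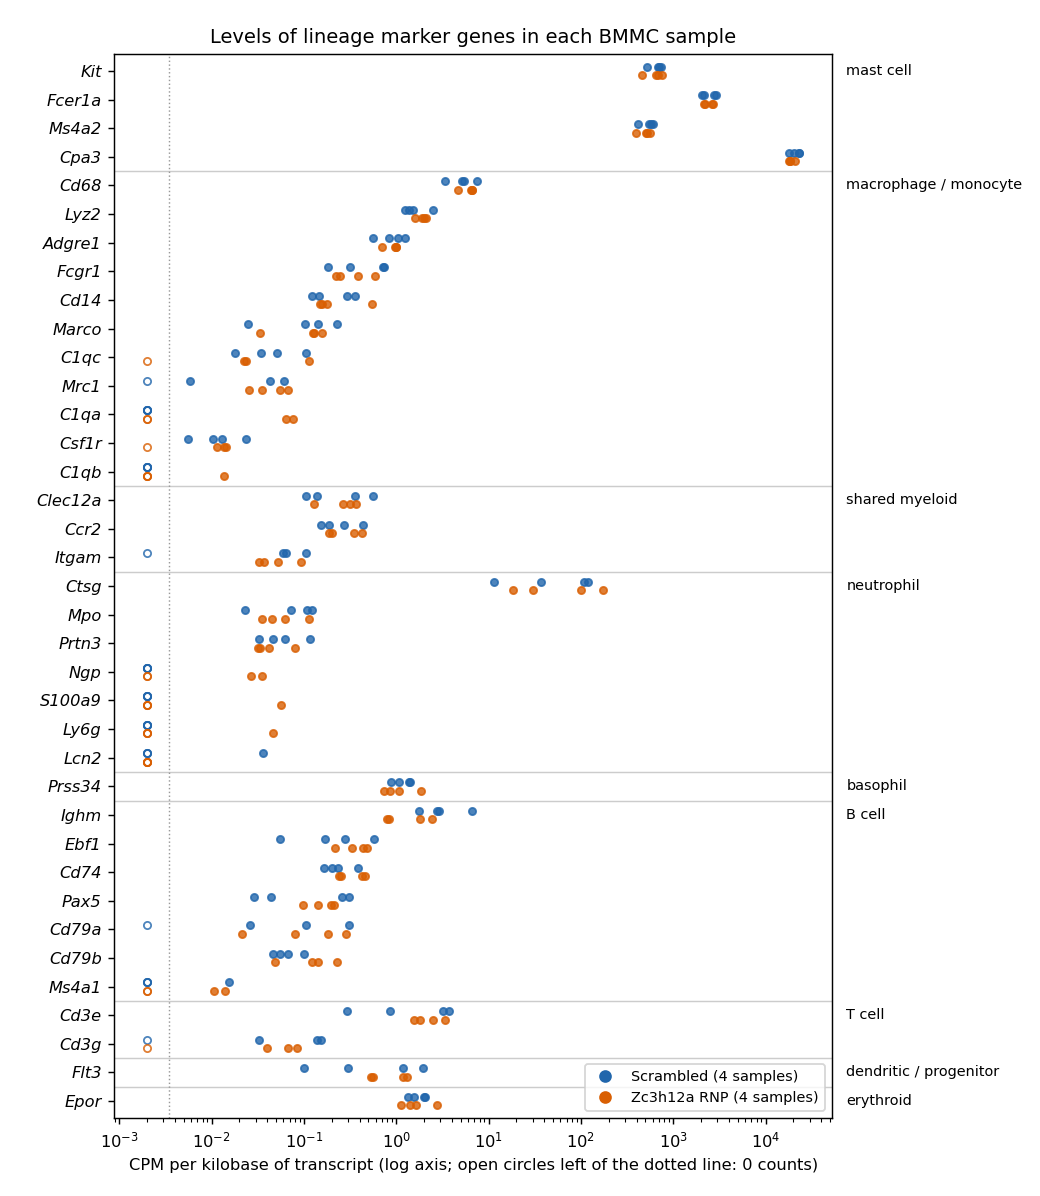
Level of 4 mast cell genes and the 33 lineage markers in each sample, in CPM per kilobase of transcript on a log axis (blue, 4 scrambled samples; orange, 4 *Zc3h12a* RNP samples; open circles, samples with 0 counts). *Ctsg* is the marker nearest to the mast cell genes, and *C1qa*, *C1qb*, *Ngp*, *S100a9*, *Ly6g*, *Lcn2* and *Ms4a1* had no count in at least 4 of the 8 samples.

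Depth sets how low these levels can be read. A limit of 3 counts per sample corresponded to 0.0951 to 0.143 CPM, and it covers counting error only. The 7 markers with 0 counts in 4 or more samples were *C1qa* (0 to 2 counts per sample), *C1qb* (0 to 1), *S100a9* (0 to 1), *Ly6g* (0 to 1), *Ngp* (0 to 1), *Lcn2* (0 to 1) and *Ms4a1* (0 to 1). They were below this limit in every sample. Of the 33 markers, 15 had enough counts for edgeR's filter and entered the test between the groups, and 18 did not and are given as counts.

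Macrophages take up and digest particles, and their markers here are surface receptors, lysosomal proteins and complement. *Cd68*, a lysosomal membrane glycoprotein of phagocytes that other cells with many lysosomes also express, was at 6.43, 8.96, 6.10 and 4.04 CPM in scrambled replicates 1 to 4 and at 7.73, 7.97, 7.98 and 5.58 CPM in *Zc3h12a* RNP replicates 1 to 4. *Lyz2*, which encodes lysozyme, was at 4.56, 7.46, 4.13 and 3.71 CPM in scrambled and at 5.93, 6.33, 4.77 and 5.75 CPM in *Zc3h12a* RNP samples. For both genes, the groups overlapped, replicate 2 was the highest scrambled sample and 3 of 4 pairs were higher with the *Zc3h12a* RNP. The log2 fold changes were 0.23 ± 0.183 for *Cd68* and 0.24 ± 0.224 for *Lyz2* (SE, edgeR adjusted p = 0.960 for each).

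The surface receptors were lower. *Adgre1*, which encodes F4/80, had 56 to 111 counts in scrambled and 67 to 102 in *Zc3h12a* RNP samples, and *Fcgr1*, the high-affinity IgG receptor, had 10 to 58 and 17 to 36. *Cd14*, the co-receptor for bacterial endotoxin, had 5 to 22 counts over the 8 samples, and *Marco*, a scavenger receptor, had 1 to 14. *Csf1r*, the receptor for M-CSF and a defining gene of the lineage, had 0 to 3 counts, and the mannose receptor *Mrc1* had 0 to 9. The 3 chains of complement C1q, which macrophages secrete together, were near 0, with 0 to 6 counts for *C1qc*. The macrophage markers were thus not at 1 level. *Csf1r*, *Mrc1* and the C1q chains had at most 9 counts in any sample, *Cd14*, *Marco* and *Fcgr1* had 1 to 58, and *Adgre1*, *Cd68* and *Lyz2* had 56 to 269.

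Of 18 further macrophage and monocyte genes, 16 had a row and 6 were tested. None was called or reached an unadjusted p of 0.05 in either direction. The most abundant per kilobase were *Cx3cr1*, the fractalkine receptor, with 2586 to 8691 counts, and the transcription factor *Maf*, with 183 to 437 counts. *Cx3cr1* alone exceeded all the macrophage markers of the set, whose sum was 16.7 ± 3.07 CPM in scrambled and 18.1 ± 1.83 CPM in *Zc3h12a* RNP samples. Other genes of that list stood at the level of C1q, such as *Trem2* with 0 to 2 counts and *Mertk* with 1 to 7.

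The 3 markers shared by several myeloid lineages were low. *Ccr2*, the chemokine receptor of inflammatory monocytes, had 28, 32, 40 and 53 counts in scrambled and 33, 46, 59 and 33 in *Zc3h12a* RNP replicates 1 to 4. *Clec12a*, an inhibitory lectin of myeloid cells, had 11, 8, 36 and 19 counts against 19, 21, 19 and 10. Both groups overlapped for these genes, and edgeR's log2 fold changes were 0.18 ± 0.504 and 0.06 ± 0.720 (SE, adjusted p = 0.967 and 0.993). *Itgam*, the integrin chain CD11b, had 0 to 10 counts and was not tested. In the annotation, 3450 of its 5118 exon bases are shared with a gene on the same strand (*Gm49368*), so reads there could have been left uncounted.

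Neutrophil granules carry serine proteases, peroxidase and antimicrobial proteins. *Ctsg*, the gene of the granule protease cathepsin G, was listed in this class and stood apart from the rest of it. Which cells its RNA came from was not tested, so its level is not read as an amount of neutrophil RNA. *Ctsg* had 1169, 3231, 3030 and 242 counts in scrambled replicates 1 to 4, or 37.1, 108, 119 and 11.5 CPM. In *Zc3h12a* RNP replicates 1 to 4 it had 871, 2289, 4171 and 572 counts, or 30.2, 99.2, 172 and 18.6 CPM. Replicates 2 and 3 were high and replicates 1 and 4 low in both groups, the highest sample being 14.9 times the lowest. Within pairs, the log2 differences were -0.29, -0.12, 0.52 and 0.69. The fitted log2 fold change was 0.18 ± 0.167 (SE, edgeR adjusted p = 0.960), so that the spread between replicate numbers was far larger than the difference between the RNPs.

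The other neutrophil markers did not accompany it. *Mpo*, the gene of myeloperoxidase, had 2, 9, 5 and 7 counts in scrambled and 9, 4, 3 and 3 in *Zc3h12a* RNP samples. *Prtn3*, which encodes proteinase 3, had 1 to 3 counts in every sample, and the late granule and surface genes *S100a9*, *Ly6g*, *Ngp* and *Lcn2* had at most 1. Without *Ctsg*, the 6 other neutrophil markers summed to 0.297 ± 0.117 CPM in scrambled and 0.263 ± 0.0744 CPM in *Zc3h12a* RNP samples. Of 17 further neutrophil genes, 11 had a row and 6 were tested. None was called, and 1 was lower at an unadjusted p at or under 0.05. That gene was *Gfi1*, a transcriptional repressor of granulocyte development that is not confined to neutrophils, with 118 to 586 counts in scrambled and 102 to 329 in *Zc3h12a* RNP samples (log2 fold change -0.81, edgeR unadjusted p = 0.00614, adjusted p = 0.524). It and *Ms4a3*, with 37 to 98 counts, were the most abundant of that list per kilobase, and the neutrophil receptors *Csf3r* and *Cxcr2* had 0 to 4 and 0 to 3 counts.

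By position, *Ctsg* belongs to a cluster of protease genes on mouse chromosome 14 (GRCm39, 56337338 to 56340031, - strand). Within 300 kb of it lie *Cma1*, a mast cell chymase at 8295 CPM on average, *Gzmb*, the granzyme B gene, at 2009 CPM, and *Mcpt8*, a protease gene known from basophils, at 4.59 CPM. *Cma1* varied 1.38-fold, *Gzmb* 2.61-fold and *Mcpt8* 5.96-fold over the 8 samples, less than *Ctsg*. *Gzmn*, with 1 to 16 counts, varied 21.9-fold, more than *Ctsg*. Of 20 neighbors with a count, 5 were, like *Ctsg*, higher in replicates 2 and 3 than in 1 and 4 of both groups, a comparison made after their values were seen. They were *Mcpt2*, *Mcpt8*, *Gzmc*, *Gzmd* and *Gzme*, with *Gzmd* at 0 to 17 counts and *Gzme* at 0 to 8. The share of all genes with this order is not given here, so the count is not read as a trait of the cluster. *Mcpt2*, a mast cell protease gene, was at 5.07, 9.56, 6.14 and 2.90 CPM in scrambled and at 7.28, 10.01, 13.3 and 5.55 CPM in *Zc3h12a* RNP replicates 1 to 4.

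Basophils share the IgE receptor and IL-3 dependence with mast cells and are the closest relative among these lineages. *Prss34*, a serine protease gene of basophils that mast cells can also express, had 54, 32, 33 and 35 counts in scrambled and 65, 24, 22 and 40 in *Zc3h12a* RNP replicates 1 to 4. Its groups overlapped (log2 fold change -0.13 ± 0.426, SE, edgeR adjusted p = 0.975). Near it on chromosome 17 lies the mast cell tryptase gene *Tpsb2*, at 6113 CPM against 1.41 CPM for *Prss34*. All 6 further genes listed for basophils were tested, and none was called or reached an unadjusted p of 0.05. Most of them are also used by mast cells, and the most abundant were *Csf2rb2*, a receptor chain for IL-3 with 146626 to 290164 counts, and the integrin chain *Itga2b*, with 30479 to 63897.

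B cells depend on the transcription factors *Ebf1* and *Pax5* and carry an antigen receptor made of immunoglobulin chains and the signaling chains *Cd79a* and *Cd79b*. *Ighm*, the constant region of the µ heavy chain, had 148, 89, 125 and 235 counts in scrambled replicates 1 to 4 (4.69, 2.96, 4.92 and 11.2 CPM). It had 39, 33, 74 and 128 counts in *Zc3h12a* RNP replicates 1 to 4 (1.35, 1.43, 3.04 and 4.16 CPM). The *Zc3h12a* RNP sample was lower in each pair, by log2 differences of -1.74, -1.01, -0.68 and -1.41. The groups overlapped, since *Zc3h12a* RNP replicates 3 and 4 lay above scrambled replicate 2. The fitted log2 fold change was -1.24 ± 0.285 (SE), and *Ighm* did not pass the test over all genes (edgeR unadjusted p = 0.00283, adjusted p = 0.449). Without replicate 2, it passed, with a log2 fold change of -1.23 and an edgeR adjusted p of 0.0146. That fit called 80 genes higher and 57 lower, against 0 in the main fit. Over all alternatives, the adjusted p of *Ighm* was between 0.0146 and 1.

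The other components of a B cell receptor were at a few counts. *Cd79a* had 0 to 14 and *Cd79b* 2 to 10 counts, and *Ms4a1*, the gene of CD20, had at most 1. The light chain constant region *Igkc* was at 0 in all 8 samples, and *Cd22*, an inhibitory co-receptor, had at most 1 count. *Cd79a* followed *Ighm* in neither group, its higher counts being 14 and 10 in the replicates numbered 2 and its lower ones 0 and 1 in those numbered 4.

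*Ebf1* had 32, 10, 42 and 73 counts in scrambled and 57, 61, 71 and 40 in *Zc3h12a* RNP replicates 1 to 4, which is 0.333 to 3.47 CPM and 1.30 to 2.92 CPM. *Pax5* had 7 to 52 and 24 to 41 counts. For these genes the scrambled samples were spread more widely than the difference between the groups, and the log2 fold changes were 0.81 ± 0.716 and 0.57 ± 0.822 (SE, edgeR adjusted p = 0.960 for each). *Cd74*, the invariant chain of MHC class II molecules, had 5 to 14 counts in scrambled and 10 to 16 in *Zc3h12a* RNP samples, and it was the only marker to be higher in 4 of 4 pairs. Its fitted log2 fold change was 0.49 ± 0.609 (SE, edgeR adjusted p = 0.960).

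Of 16 further B cell genes, 14 had a row, 13 were detected and 5 were tested. None was called, and 1 was higher at an unadjusted p at or under 0.05. This was *Bank1*, an adaptor of B cell receptor signaling, with 92 to 239 counts in scrambled and 196 to 326 in *Zc3h12a* RNP samples (log2 fold change 0.64, edgeR unadjusted p = 0.00254, adjusted p = 0.449). *Bank1* and the adaptor *Blnk*, with 83 to 199 counts, were the most abundant of that list per kilobase. The fitted directions of *Ighm* and *Bank1* were opposite.

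*Cd3e* and *Cd3g* encode chains of the CD3 complex, which assembles with the T cell receptor. *Cd3e* had 39, 13, 119 and 115 counts in scrambled and 65, 84, 119 and 81 in *Zc3h12a* RNP replicates 1 to 4, or 0.433 to 5.47 CPM and 2.25 to 4.89 CPM. *Cd3g* had 0, 1, 4 and 3 counts against 2, 2, 1 and 0, and *Cd3d*, another chain, had 1 count in 1 sample and 0 in the other 7. Counts of 1 chain of the complex were therefore not matched by the other chains. The log2 fold change of *Cd3e* was 0.63 ± 0.651 (SE, edgeR adjusted p = 0.960), with pairs from -1.04 to 2.87. Of 11 further T cell genes, 9 had a row, 8 were detected and 2 were tested. None was called or reached an unadjusted p of 0.05, and the most abundant per kilobase were *Bcl11b*, with 15 to 167 counts, and *Cd8b1*, with 6 to 50.

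*Flt3*, the receptor that supports early progenitors and dendritic cells, had 35, 11, 109 and 150 counts in scrambled and 56, 110, 106 and 63 in *Zc3h12a* RNP replicates 1 to 4. The scrambled samples spanned 0.367 to 7.14 CPM and held both the lowest and the highest of the 8 values. The log2 fold change was 0.54 ± 0.834 (SE, edgeR adjusted p = 0.960). Of 10 further dendritic cell genes, 3 were tested, and none was called or reached an unadjusted p of 0.05. The most abundant per kilobase were the lectin *Clec10a*, with 48 to 162 counts, and the transcription factor *Zbtb46*, with 14 to 118.

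*Epor*, the erythropoietin receptor, had 117, 74, 73 and 76 counts in scrambled and 146, 48, 63 and 92 in *Zc3h12a* RNP replicates 1 to 4. Replicate 1 was the highest of each group, and the log2 fold change was -0.05 ± 0.304 (SE, edgeR adjusted p = 0.982). In the annotation, 953 of 2235 exon bases of *Epor* overlap *Swsap1* on the opposite strand. The strand setting of the counting is not given in the sources used here, so part of these counts may belong to that gene. Of 13 further erythroid genes, 12 had a row, 11 were detected, 3 were tested and none was called or reached an unadjusted p of 0.05. The most abundant per kilobase was the globin gene *Hba-a1*, with 21 to 116 counts, whose near-identical copy *Hba-a2* was listed at 0, and next came *Klf1*, with 5 to 26.

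**Figure D2:**
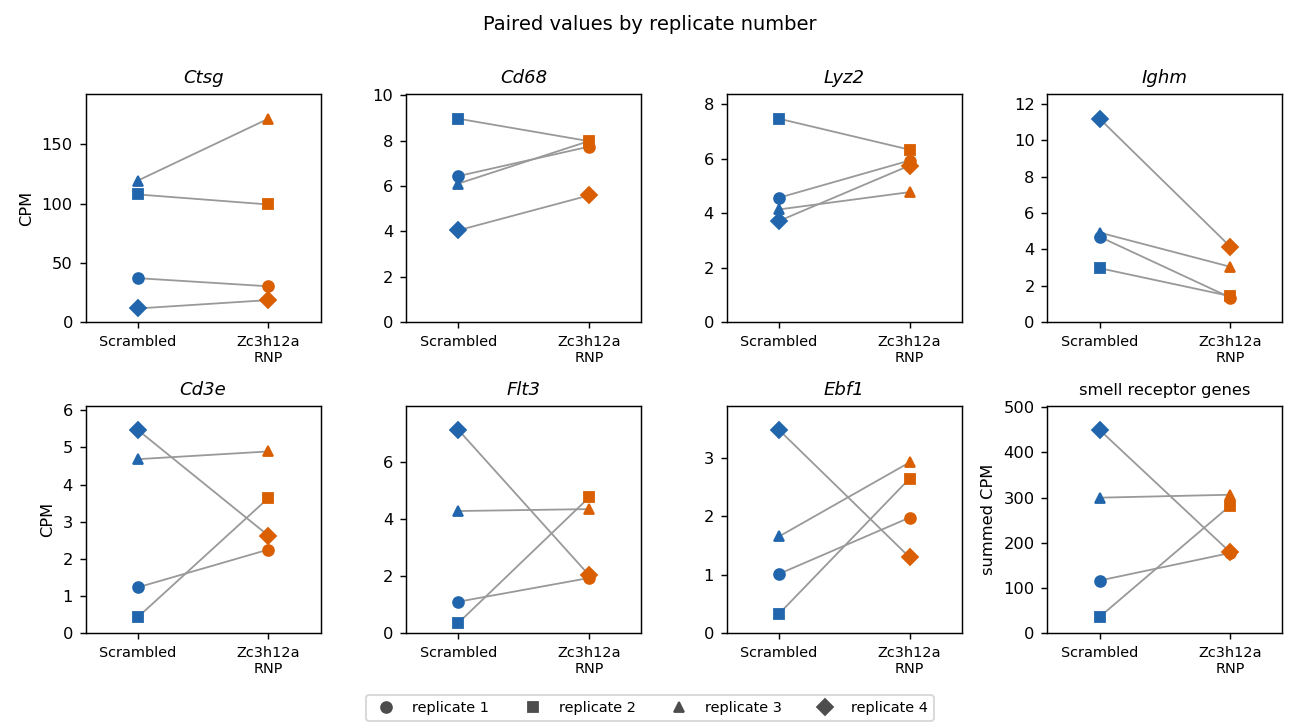
CPM of 7 markers and summed CPM of 801 smell receptor genes in each sample, with lines joining samples of the same replicate number. *Ctsg* keeps its order between replicate numbers in both groups, *Ighm* is lower with the *Zc3h12a* RNP in 4 of 4 pairs, and *Cd3e*, *Flt3* and *Ebf1* share with the smell receptor genes a low value in scrambled replicate 2 and a high one in scrambled replicate 4.

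Several markers varied between samples along with smell receptor genes, which were taken here as a background. The summed CPM of 801 smell receptor genes was 117, 36.3, 300.0 and 450 in scrambled replicates 1 to 4 and 178, 282, 306 and 179 in *Zc3h12a* RNP replicates 1 to 4. Scrambled replicate 4 was thus 12.4 times scrambled replicate 2 for these receptors. The same ratio was 10.4 for *Ebf1*, 10.6 for *Pax5*, 12.6 for *Cd3e* and 19.5 for *Flt3*. It was 3.77 for *Ighm* and 3.39 for *Clec12a*, whereas it was 0.451 for *Cd68*, 0.497 for *Lyz2*, 0.246 for *Fcgr1* and 0.107 for *Ctsg*. Over 13758 genes tested that had more than 3 counts in scrambled replicate 2, the median ratio was 0.951, and 1777 of them (12.9%) were above 5, as were these 4 markers of the 15.

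**Figure D3:**
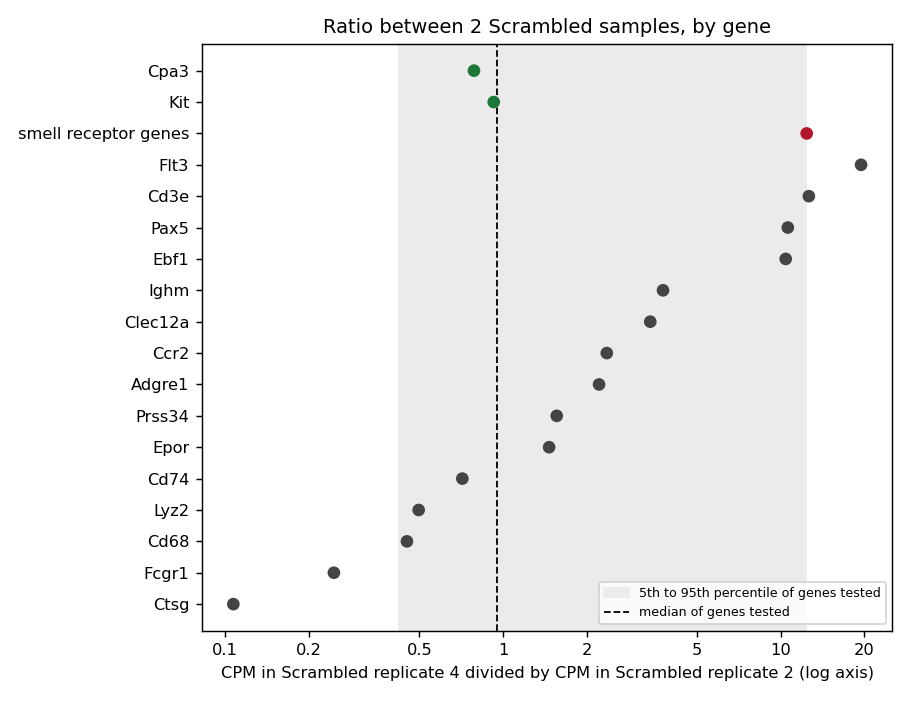
Ratio of CPM in scrambled replicate 4 to CPM in scrambled replicate 2 on a log axis for the 15 tested markers (gray), the summed smell receptor genes (red) and the mast cell genes *Kit* and *Cpa3* (green), beside the median and the 5th to 95th percentile of genes tested. *Flt3*, *Cd3e*, *Pax5* and *Ebf1* lie between 10.4 and 19.5, near the receptors at 12.4, and *Cd68*, *Lyz2*, *Fcgr1* and *Ctsg* lie below 0.5.

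The differences within pairs are given for *Cd3e*, *Flt3*, *Ebf1* and *Pax5*, beside the receptors. Pairs 2 and 4 hold the same scrambled samples as the ratio above, so these differences are not independent of it. The share of all genes with a similar order of pairs is not given here. The receptor sum differed by log2 values of 0.61, 2.96, 0.03 and -1.33 in pairs 1 to 4. *Cd3e* differed by 0.83, 2.87, 0.06 and -1.04, *Flt3* by 0.77, 3.46, 0.02 and -1.77, *Ebf1* by 0.91, 2.74, 0.79 and -1.37, and *Pax5* by 1.53, 2.41, -0.27 and -1.58. In *Ighm*, pair 2 was lower and not higher. The part of whatever raised the receptors in these markers was not tested. Variable, diversity and joining segments of the immunoglobulin genes (59 genes, a list chosen after *Ighm* was seen) had a ratio of 11.7 between the same scrambled samples, and a sum of 7.42 ± 6.01 CPM in scrambled and 6.52 ± 1.63 CPM in *Zc3h12a* RNP samples.

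The comparison of the RNPs over the whole set called no marker. Calls required a change of more than 0.5 on the log2 scale together with a Benjamini-Hochberg adjusted p of 0.05 or less over 14934 genes, from edgeR's quasi-likelihood model that holds the replicate number and the RNP. Of the 15 markers tested, 0 were called, and 0 of all genes tested were called (0%). DESeq2, run as an alternative, called 8 genes higher and 50 lower, limma-trend called 0 and 1, and no marker was among them. Of the 15 markers, DESeq2 gave an adjusted p only to *Cd68* and *Ctsg*, and its own filter left 13 without one. DESeq2 gave *Ighm* a log2 fold change of -1.26 and an unadjusted p of 0.000205, without an adjusted p.

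At an unadjusted p at or under 0.05, 0 of the 15 markers were higher and 1, *Ighm*, was lower. Over all genes tested, 2.12% were higher and 4.05% lower by this measure. By direction alone, *Cd74* was higher and *Ighm* lower in 4 of 4 pairs, against 4.98% higher and 8.54% lower over all genes tested. Fitted log2 fold changes were above 0 for 11 markers and below 0 for 4, with a median of 0.18. Over all 14934 genes tested, 8635 were above 0 and 6299 below 0, with a median of 0.04. The 4 markers with the largest positive values were *Ebf1*, *Cd3e*, *Pax5* and *Flt3*. Without replicate 2, their log2 fold changes were 0.19, -0.0043, -0.10 and -0.28, and the cause was not tested.

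**Figure D4:**
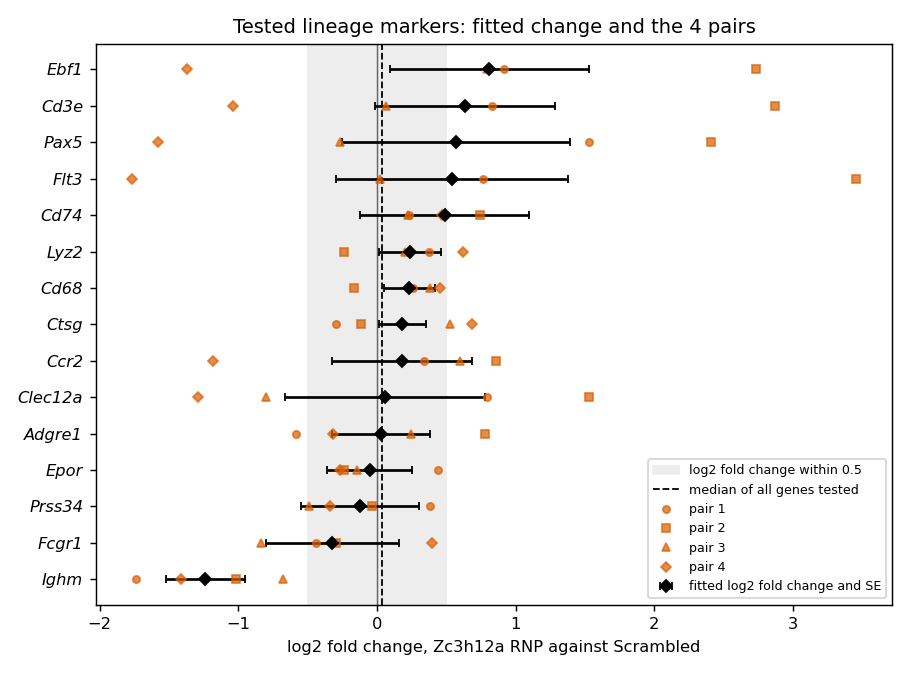
Log2 fold change of the 15 tested markers, *Zc3h12a* RNP against scrambled (diamonds with bars, fitted value ± SE; smaller orange symbols, the 4 pairs; dashed line, median of all genes tested). *Ighm*, at -1.24, is the only marker with its 4 pairs below 0, and the pairs of *Ebf1*, *Cd3e*, *Pax5* and *Flt3* reach from below -1 to above 2.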

How the data were processed

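Poly(A) RNA of 8 BMMC samples (4 per RNP) was sequenced in paired ends. The authors aligned the reads with HISAT2 2.2.1 to GRCm39 after FastQC 0.11.9, counted them per gene with featureCounts 2.0.1 and deposited raw counts, 1 file per sample. The strand setting and the handling of reads with several matches are not given in the sources used here. A batch removal is named in the study's methods, but the deposited counts are whole numbers.

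Here, edgeR 4.0.16 (R 4.3.3) was run on the counts (TMM, filterByExpr by group, quasi-likelihood test, replicate number as a block). SE was taken as the fitted log2 value over the square root of F. Differences per pair used log2 CPM with a prior count of 2. Levels per kilobase used the canonical transcript in GENCODE's annotation of GRCm39, in which all 33 members with a row were found. Only the edgeR fit was tried on simulated counts. Those were drawn without a replicate effect, so the trial does not cover the spread between these samples. Smell receptor genes were found by symbol, and 2 of 803 with a mean above 100 counts were left out after their values were seen. Values per sample are given for the 2 most abundant members of each lineage per kilobase and for members with an unadjusted p at or under 0.05. The members and the 15 gene lists were chosen with earlier results of these data known. Alternatives were no block, DESeq2 1.42.0, limma-trend (limma 3.58.1), other normalizations and filters, another prior count, and leaving out each replicate number. Figures were drawn with matplotlib 3.10.9.

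Pairing rests on the series' design (each RNP given to cells of the same 4 mice), although the labels do not tie a number to a mouse. After subtracting the group mean, the correlation within pairs 1 to 4 was 0.756, 0.717, 0.728 and 0.719 over 9668 genes with a mean log2 CPM above 2, and at most 0.137 between unlike numbers. Over every gene tested it was 0.595, 0.0752, 0.624 and 0.0414, with up to 0.398 between unlike numbers. Samples of a group differed by more than sampling noise (the lowest chi-square was 53.6 per degree of freedom).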

Additional observations from a re-analysis of the deposited data

Results flagged for a closer look

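In each group of 4 samples, the distance of the most extreme sample to its nearest neighbor was compared with the group's range for the 15 tested markers, 30 groups in all. The lowest sample lay far from the rest in 2 of them, where chance gives 1.5 (1 in 20). *Adgre1* in *Zc3h12a* RNP replicate 1 was at 2.32 CPM, with a gap of 0.884 of the group's range, and the other samples were at 3.25 to 3.37 CPM. *Cd68* in *Zc3h12a* RNP replicate 4 was at 5.58 CPM, with a gap of 0.898 of the range, and the other samples were at 7.73 to 7.98 CPM. Scrambled replicate 4 was also the lowest of its group for *Cd68*, at 4.04 CPM.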

How the results depend on the processing

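Of 162 log2 fold changes of markers under the alternatives, 133 kept their direction and their side of the threshold, 13 from DESeq2 kept their direction without an adjusted p, 15 reversed their sign and 1 gained a call. With no replicate block no gene was called, *Ighm* was at -1.24, *Adgre1* at -0.011, *Clec12a* at -0.13 and *Epor* at 0.0083 (log2). With library totals in place of TMM, *Epor* was at 0.014, and 2 markers (*Cd74* and *Cd79a*) were higher in 4 of 4 pairs. Genes called higher numbered 8 with DESeq2 and 9 with no filter on low counts. Genes called lower numbered 50 with DESeq2, 1 with limma-trend, 1 with RLE normalization, 31 with no filter and 3 with at least 10 counts in every sample. Leaving out 1 replicate number at a time gave 0 to 80 genes called higher, 0 to 57 called lower and 0 to 1 markers called lower, and the highest of each, 80, 57 and 1 (*Ighm*), came without replicate 2. In those fits the log2 fold changes ranged from -0.16 to 0.28 for *Adgre1*, -0.43 to 0.57 for *Clec12a*, -0.033 to 0.63 for *Ccr2*, -0.10 to 1.33 for *Pax5*, -0.0043 to 1.23 for *Cd3e*, -0.28 to 1.36 for *Flt3* and -0.18 to 0.076 for *Epor*. Without a change of sign, they ranged from 0.19 (without replicate 2) to 1.52 (without replicate 4) for *Ebf1*, 0.011 to 0.39 for *Ctsg*, 0.11 to 0.46 for *Lyz2*, 0.13 to 0.43 for *Cd68*, -0.55 to -0.18 for *Fcgr1* and -0.26 to -0.043 for *Prss34*. *Ighm* ranged from -1.48 to -1.01 over all alternatives. With at least 10 counts required in every sample, *Clec12a*, *Pax5* and *Cd74* were not tested. In the main fit, the filter on low counts left 18 of 33 markers without a test. The cause of each change was not tested.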

Other observations

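Genes listed for blood lineages outside the set were in part abundant. Of 10 megakaryocyte and platelet genes, 9 had a row, 6 were tested, and none was called or had an unadjusted p at or under 0.05. The most abundant per kilobase were *Itga2b*, which is also in the basophil list, at 265 CPM per kilobase, and *Gp1ba*, a subunit of the platelet receptor for von Willebrand factor, at 221. All 8 progenitor genes, *Flt3* among them, were tested and none was called, with *Cd34* at 221 and *Ly6a* at 77.6 CPM per kilobase. *Mecom*, a transcription factor of hematopoietic stem cells, was higher at an unadjusted p at or under 0.05 (log2 fold change 0.38, edgeR unadjusted p = 0.00508, adjusted p = 0.510). Of 9 eosinophil genes, 4 had a row and 3 were tested, none of them called or at an unadjusted p at or under 0.05. *Ccr3*, the eotaxin receptor, had 28 to 98 counts, *Siglecf* had 12 to 132, and the granule gene *Prg2* had 0 to 1.

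Of 9 natural killer cell genes, 8 had a row and 3 were tested. None was called and 1, *Eomes*, was lower (log2 fold change -0.48, edgeR unadjusted p = 0.00689, adjusted p = 0.550). *Eomes*, a T-box transcription factor, had 186 to 504 counts, and *Klre1* 3 to 30. All 7 MHC class II genes, *Cd74* among them, had a row, 5 were tested and none was called or had an unadjusted p at or under 0.05, with *H2-DMb1* at 19.9 and *H2-DMa* at 7.11 CPM per kilobase against 0.295 for *Cd74*. Of 13 stromal and endothelial genes 9 were tested, none of them called or at an unadjusted p at or under 0.05, and *Tek* and *Lepr* were the most abundant, at 7.33 and 0.843 CPM per kilobase. Of 21 genes of other tissues, 13 had a row, 4 were tested and none was called or had an unadjusted p at or under 0.05, with *Cyp3a11* at 1.20 and *Slc17a7* at 0.573 CPM per kilobase. Of the 20 mast cell genes, 18 were tested, none was called, 1 was higher and 4 were lower at an unadjusted p at or under 0.05. Over all genes tested, 2.12% were higher and 4.05% lower by this measure. The list was chosen with earlier results of these data known. The gene that was higher was the protease *Mcpt2* (log2 fold change 0.65), and those that were lower were *Hdc*, the histidine decarboxylase that makes histamine (-0.75), *Tpsb2* (-0.28), the granule proteoglycan *Srgn* (-0.23) and the transcription factor *Gata1* (-0.22). *Cpa3* and *Cma1* were the most abundant of that list.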
